A study of Mus musculus with 14 samples.

Results

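The BCL2 family genes that decide whether a cell survives or dies were followed through 14 RNA-seq libraries of mouse ovary and uterus. The 10 genes were taken by name among the 21853 genes measured: 6 survival genes (Mcl1, Bcl2l1, Bcl2, Bcl2a1a, Bcl2a1b and Bcl2a1d), 2 executioners (Bax and Bak1) and 2 BH3-only death signals (Bbc3 and Bcl2l11). The set was chosen by name after the difference between OT and OC ovaries had been seen, in which Bcl2a1a was among the largest increases. All mice were female C57BL/6J animals aged 28 weeks. The OT (old treatment) group, 4 mice, was given AMSC-CM, medium conditioned by mesenchymal stem cells of the human amniotic membrane, through the tail vein in 6 doses of 1 µL per g spaced by 4 days, and the OC (old control) group, 3 mice, was given saline. The AMSC came from 3 donors. Both groups had first received 2 gonadotropins, 10 IU of each and 48 h apart, to bring their estrous cycles into phase. Whole organs were sequenced, so fewer cells of a type and less RNA per cell cannot be told apart in any value below. Values are FPKM, fragments per kilobase of transcript in proportion to all mapped fragments, which are per length and can be compared between genes. No depth per library is known, so no counting interval is given.

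Survival proteins of this family hold BAX and BAK in check at the mitochondrial surface. BH3-only proteins bind the survival proteins or activate BAX and BAK directly, which then open the outer membrane and let cytochrome c out to start the caspases. In the ovary this machinery governs the death of oocytes and of the granulosa cells of regressing follicles, and in the uterus it accompanies the cyclic turnover of the epithelium.

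The labelled tissues were checked against their markers. The 6 ovary markers summed to between 3075 and 3949 FPKM in the ovaries and between 6.28 and 19.3 FPKM in the uteruses, and Zp3, an oocyte coat gene, was listed at 0 in every uterus. The 6 uterus markers summed to between 864 and 1636 FPKM in the uteruses and between 146 and 449 FPKM in the ovaries. Hoxa10, a regulator of uterine identity, ran from 0.572 FPKM in the OT1 ovary to 53.4 FPKM in the OC2 ovary, so the ovary libraries held unequal amounts of a transcript typical of the uterus. In the uteruses it measured 214 to 236 FPKM in the OC group and 138 to 186 FPKM in the OT group. Hoxa10 and Hoxa11 (64.4 to 73.2 and 41.7 to 60.1 FPKM) were the 2 of 6 uterus markers lower in each OT uterus. Groups did not overlap in 11.9% of all uterus genes. Among the uteruses, OT1 stood apart with 4945 FPKM of summed adipocyte markers, against 34.0 to 141 FPKM in the OC group and 550 to 1354 FPKM in the other 3 OT uteruses. FPKM summed over all genes came to 577494 in the OT1 uterus, 425875 to 471907 in the other uteruses and 374816 to 397644 in the ovaries. The FPKM printed below are not scaled to these sums. The part of these differences in the results below was not tested, and the fitted differences in the uterus that OT1 moves most are given with and without it. For Bax, Bcl2 and Mcl1, it is also stated where a separation was lost after division by these sums.

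The 3 Bcl2a1 genes are near copies that encode A1, a survival protein made chiefly in blood cells and induced by NF-kB. They lie on chromosome 9 (mm10), Bcl2a1d at chr9:88723285-88731914 on the minus strand, Bcl2a1a at chr9:88956900-88962419 and Bcl2a1b at chr9:89199209-89207827, both on the plus strand. Their coding sequences are 519 bases long, and 12 of the 519 positions (2.31%) differ among the 3. Pairwise identity of the coding sequences was 97.88% for Bcl2a1a and Bcl2a1b, 98.65% for Bcl2a1a and Bcl2a1d, and 98.84% for Bcl2a1b and Bcl2a1d. The first 120 coding bases hold 7 of the 12 positions and are shown because only such positions let a read be assigned to 1 copy. The 7 differing positions are in capitals, and the sequences lie at chr9:88957051-88957170 (plus), chr9:89199360-89199479 (plus) and chr9:88731600-88731719 (minus), each within 1 exon.
Bcl2a1a: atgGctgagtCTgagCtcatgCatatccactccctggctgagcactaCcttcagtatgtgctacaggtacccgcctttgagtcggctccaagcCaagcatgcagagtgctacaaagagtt
Bcl2a1b: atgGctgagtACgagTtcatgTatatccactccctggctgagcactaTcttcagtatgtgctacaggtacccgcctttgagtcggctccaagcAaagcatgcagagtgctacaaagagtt
Bcl2a1d: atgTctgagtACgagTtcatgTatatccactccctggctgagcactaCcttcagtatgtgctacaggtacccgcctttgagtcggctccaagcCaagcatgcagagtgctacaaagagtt

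Of all stretches of 50 bases in the annotated transcripts, 67.7% in Bcl2a1a, 57.6% in Bcl2a1b and 79.5% in Bcl2a1d also occur in another of the 3 genes. Bcl2a1b also overlaps Gm29094, a protein-coding gene on the same strand, and with all genes counted 79.2% of its stretches occur elsewhere. The division of reads among the 3 copies is therefore uncertain, and their sum, hereafter the summed Bcl2a1 genes, is given beside them. Another copy, Bcl2a1c, was listed at 0 in all 14 libraries.

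The promoters of the 3 copies were also nearly alike. Windows of 88 bases are shown around the letters GAGGAAGT, the form of the PU box bound by the blood-cell factor PU.1, in capitals. The motif was chosen after the sequences had been seen. The windows come from RefSeq (GRCm38.p6) at chr9:88956776-88956863 (plus), chr9:89199085-89199172 (plus) and chr9:88731907-88731994 (minus). The motif begins 104, 148 and 104 bases before the RefSeq start of each gene, which is not the GENCODE start printed above.
Bcl2a1a: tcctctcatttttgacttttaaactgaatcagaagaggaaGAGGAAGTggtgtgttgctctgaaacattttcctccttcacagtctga
Bcl2a1b: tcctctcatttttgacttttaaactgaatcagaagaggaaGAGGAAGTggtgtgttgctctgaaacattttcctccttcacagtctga
Bcl2a1d: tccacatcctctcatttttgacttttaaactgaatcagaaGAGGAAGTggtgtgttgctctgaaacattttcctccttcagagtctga

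Searched on both strands, the motif was present in 1052 of 32851 promoters of the same length (3.2%). Among 12 promoters of the other 7 genes it was found in 1, that of Bak1. A match describes the letters only.

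Mcl1 (chr3:95658788-95663176), whose short-lived protein guards many cell types including oocytes, was the most abundant of the 10 genes in every library. In the ovary it measured 73.2, 79.6 and 81.1 FPKM in the OC group and 77.4, 81.6, 80.7 and 77.7 FPKM in the OT group. In the uterus it measured 86.4, 83.5 and 88.3 FPKM in the OC group and 91.2, 94.9, 94.3 and 98.0 FPKM in the OT group. The groups overlapped in the ovary, and in the uterus each OT library was higher than each OC library. FPKM summed over all genes also differed between the uteruses. Divided by that sum, Mcl1 overlapped between the uterine groups, and OT1 was the lowest uterus. Its coefficient of variation within a group was at most 0.0536.

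Bcl2l1 (chr2:152780668-152831728), the gene of BCL-XL, came next among the 6 survival genes of the set in every library. It measured 30.7, 27.9 and 27.8 FPKM in OC ovaries and 33.2, 27.7, 26.7 and 28.4 FPKM in OT ovaries. In the uterus it measured 48.7, 37.8 and 42.9 FPKM in the OC group and 25.7, 33.0, 41.0 and 42.3 FPKM in the OT group. OT1 was the lowest of the 7 uteruses, and the groups overlapped in both tissues.

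Bcl2 (chr1:106538178-106714274), the founding survival gene of the family, was lower than Bcl2l1 in all 14 libraries. It measured 12.4, 12.9 and 11.4 FPKM in OC ovaries and 11.9, 9.86, 11.4 and 12.0 FPKM in OT ovaries. Uterine values were 19.9, 25.1 and 25.8 FPKM in the OC group and 14.1, 19.0, 20.1 and 22.9 FPKM in the OT group. Again OT1 was the lowest uterus, and the groups overlapped. The ratio of Bcl2l1 to Bcl2 ran from 2.16 to 2.81 in the ovaries and from 1.51 to 2.45 in the uteruses.

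The Bcl2a1 genes were the least abundant of the 6 survival genes of the set. Bcl2a1b held most of their sum in the ovary, with 3.24, 3.79 and 3.95 FPKM in the OC group and 5.45, 4.33, 5.27 and 4.62 FPKM in the OT group, and the 2 groups did not overlap. In the uterus Bcl2a1b measured 2.12, 1.04 and 1.20 FPKM in the OC group and 5.22, 6.07, 1.26 and 1.05 FPKM in the OT group. The OT uteruses were thus split, with OT1 and OT2 above all others and OT3 and OT4 within the OC range.

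Bcl2a1a measured 0.20 and 0.391 FPKM in the OC1 and OC2 ovaries and was listed at 0 in OC3, and it measured 0.566, 1.34, 0.468 and 1.56 FPKM in the 4 OT ovaries. Each OT ovary was higher than each OC ovary. Uterine values were 0.353, 0.219 and 0 FPKM in the OC group and 0.519, 1.20, 0 and 0.571 FPKM in the OT group, which overlapped. Bcl2a1d measured 0.386, 0.189 and 0.713 FPKM in OC ovaries and 1.27, 1.29, 0 and 1.32 FPKM in OT ovaries. In the uterus it measured 0.345, 0.426 and 0 FPKM in the OC group and 1.87, 1.16, 0.455 and 0.185 FPKM in the OT group.

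Read together, the summed Bcl2a1 genes reached 3.83, 4.37 and 4.67 FPKM in OC ovaries and 7.29, 6.96, 5.74 and 7.50 FPKM in OT ovaries. In the uterus the sum was 2.81, 1.69 and 1.20 FPKM in the OC group and 7.61, 8.43, 1.72 and 1.81 FPKM in the OT group. The ovarian groups stayed apart after summing. The uterine groups overlapped, and OT1 and OT2 held all of the high values.

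Bax (chr7:45461697-45466898), the executioner that moves from the cytosol to mitochondria, measured 44.0, 38.1 and 38.9 FPKM in OC ovaries and 36.3, 40.01, 43.7 and 43.4 FPKM in OT ovaries. Uterine values were 27.8, 30.5 and 29.9 FPKM in the OC group and 40.4, 28.5, 27.2 and 28.1 FPKM in the OT group. The OT1 uterus was the one uterus within the ovarian range. Gm45808, annotated as protein coding on the same strand, overlaps Bax, so some of its reads could be shared.

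Bak1 (chr17:27019810-27029009), the executioner that sits at mitochondria from the outset, measured 14.6, 11.7 and 13.1 FPKM in OC ovaries and 13.7, 15.8, 13.1 and 13.2 FPKM in OT ovaries. In the uterus it measured 13.9, 14.1 and 10.95 FPKM in the OC group and 16.1, 16.2, 17.4 and 13.2 FPKM in the OT group. The groups overlapped in both tissues. Bax exceeded Bak1 in every library, by 2.53 to 3.34 times in the ovaries and 1.56 to 2.73 times in the uteruses.

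Bbc3 (chr7:16308393-16318205) encodes PUMA, the BH3-only protein that p53 induces after DNA damage. It measured 4.89, 4.11 and 3.82 FPKM in OC ovaries and 5.76, 3.37, 4.31 and 3.24 FPKM in OT ovaries, and 2.66, 4.05 and 5.42 FPKM in OC uteruses against 3.76, 6.29, 3.93 and 4.43 FPKM in OT uteruses. The groups overlapped in both tissues.

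Bcl2l11 (chr2:128126038-128162547) encodes BIM, a BH3-only protein induced by FOXO factors when growth factors are withdrawn. Ovarian values were 8.75, 10.7 and 9.78 FPKM in the OC group and 12.6, 10.8, 11.5 and 10.48 FPKM in the OT group. In the uterus it measured 14.9, 18.6 and 18.9 FPKM in the OC group and 4.88, 18.8, 14 and 14.7 FPKM in the OT group. The OT1 uterus held the lowest Bcl2l11 value of all 14 libraries, and the groups overlapped in both tissues.

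**Figure D1:**
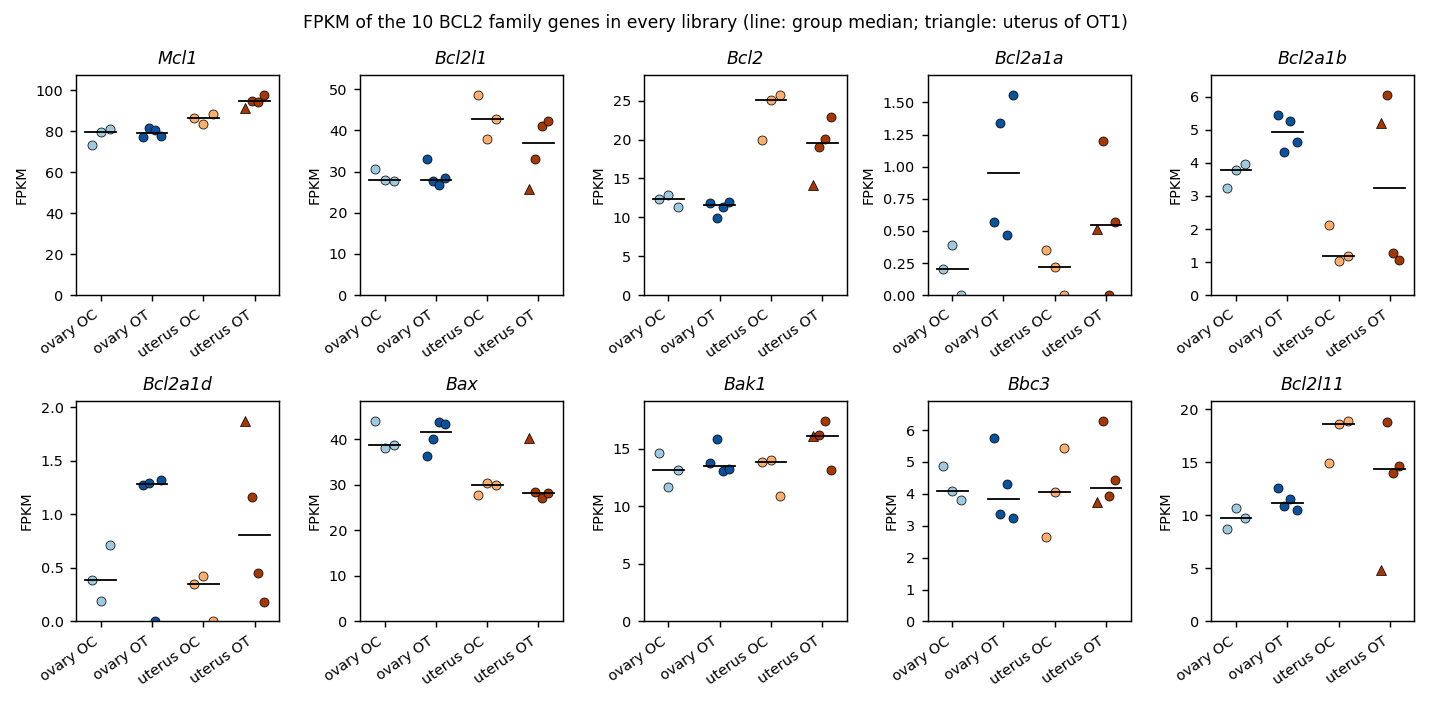
FPKM of the 10 genes (y axis, linear, from 0, a separate scale for each gene) in the 3 OC and 4 OT libraries of ovary and uterus (x axis). Points are libraries, lines are group medians and the triangle is the OT1 uterus, which is the highest uterus for Bax (40.4 FPKM) and the lowest for Bcl2l1, Bcl2 and Bcl2l11.

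By tissue median, the order in the ovary was Mcl1 (79.6 FPKM), Bax (40.01), Bcl2l1 (27.9), Bak1 (13.2), Bcl2 (11.9), Bcl2l11 (10.7), Bcl2a1b (4.33), Bbc3 (4.11), Bcl2a1d (0.713) and Bcl2a1a (0.468). In the uterus it was Mcl1 (91.2 FPKM), Bcl2l1 (41.0), Bax (28.5), Bcl2 (20.1), Bcl2l11 (14.9), Bak1 (14.1), Bbc3 (4.05), Bcl2a1b (1.26), Bcl2a1d (0.426) and Bcl2a1a (0.353). In the ovary the ranges of Mcl1, Bax and Bcl2l1 over libraries were separate from each other and from those below. Bak1, Bcl2 and Bcl2l11 overlapped in turn, as did Bcl2a1b with Bbc3 and Bcl2a1d with Bcl2a1a. Overlap of ranges does not compare genes within a library: Bak1 exceeded Bcl2l11 in every ovary, and Bcl2 exceeded Bcl2l11 in every uterus. In the uterus Mcl1 stood clear of the rest, and Bcl2l1 overlapped Bax, Bcl2 overlapped Bcl2l11 and Bcl2l11 overlapped Bak1. Below a gap from Bak1, the ranges of Bbc3, Bcl2a1b, Bcl2a1d and Bcl2a1a overlapped in turn. The lowest Bcl2l11 value, 4.885 FPKM in the OT1 uterus, lay within the Bbc3 range.

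The 6 survival genes together amounted to 120 to 130 FPKM in the ovaries and 139 to 165 FPKM in the uteruses. Mcl1 made up 61.0% to 64.9% of that sum in OC ovaries, 59.6% to 64.8% in OT ovaries, 54.8% to 56.4% in OC uteruses and 59.4% to 65.8% in OT uteruses. Its share was thus higher in each OT uterus than in each OC uterus, with OT1 the highest. The ratio of the summed survival genes to Bax and Bak1 together was 2.05 to 2.60 in the ovaries, 3.32 to 3.87 in OC uteruses and 2.45 to 3.996 in OT uteruses, where the lowest was OT1 and the other 3 were at or above 3.48. Other family members, such as Bcl2l2 and Bok, are outside these sums, so the ratio describes the chosen genes alone. Bcl2l2 measured 35.1 to 43.7 FPKM in the ovaries and 17.7 to 31.5 FPKM in the uteruses. Bok measured 29.8 to 38.9 FPKM in the ovaries and 32.3 to 58.5 FPKM in the uteruses.

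**Figure D2:**
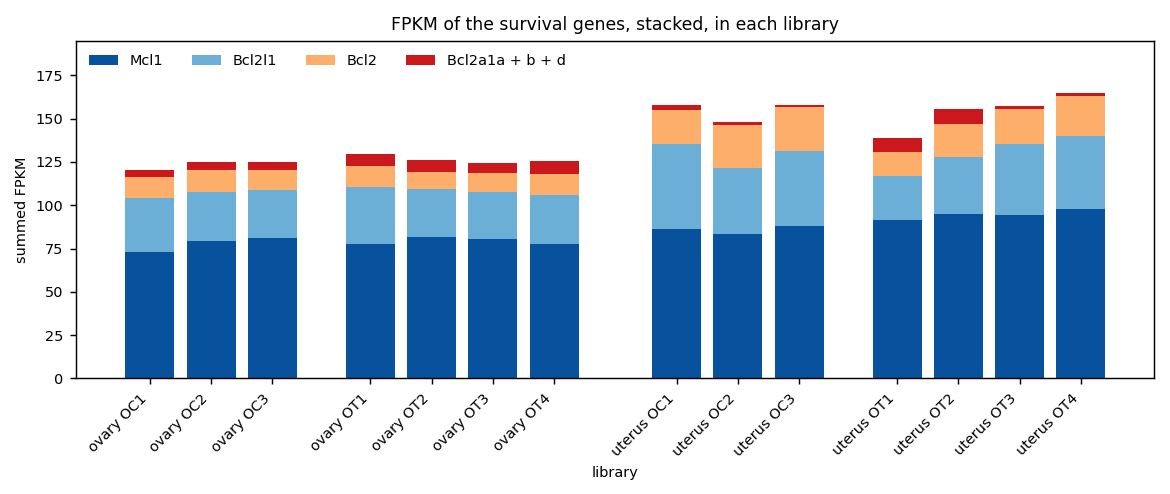
Stacked FPKM (y axis, linear, from 0) of Mcl1, Bcl2l1, Bcl2 and the summed Bcl2a1 genes in each of the 14 libraries (x axis). Every bar is mostly Mcl1, with 54.8% to 65.8% of the height. The ovary bars are shorter than the uterus bars, in FPKM not scaled to the sum over all genes.

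Uterus and ovary were compared over all 14 libraries with OC and OT weighted equally. The fit was limma on log2(FPKM + 0.1), with p-values adjusted by Benjamini-Hochberg over 14557 genes. The p-values measure the spread between mice of a group. At an adjusted p under 0.05, the uterus had the higher level for 3 of the 10 (26.1% of all genes) and the lower level for 2 (26.8% of all genes), and this total of 5 is close to the share over all genes (52.9%). In 2 of the 10 the tissues did not overlap, against 25.0% of all genes. The median log2 difference of the 10 was 0.04, and that of all genes tested was -0.00.

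Of the survival genes in the set, Mcl1, Bcl2l1 and Bcl2 were all higher in the uterus. Bcl2l2, a family member outside the set, was lower there by 0.64. Bcl2 was higher by 0.84 on the log2 scale (SE 0.11, adjusted p = 2.388e-05), and all 7 uteruses lay above all 7 ovaries. Mcl1 was higher by 0.20 (SE 0.05, adjusted p = 0.00443), again with no overlap. Bcl2l1 was higher by 0.42 (SE 0.11, adjusted p = 0.00603), although the OT1 uterus lay below every ovary. Quantile normalization brought Mcl1 to 0.08 and ended its call (adjusted p = 0.357). FPKM summed over all genes was itself higher in each uterus than in each ovary. Divided by that sum, Bcl2 and Mcl1 of the OT1 uterus lay below every ovary, so neither gene kept its separation of tissues.

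Bax and Bcl2a1b went the other way. Bax was lower in the uterus by 0.43 (SE 0.09, adjusted p = 0.00148), and the OT1 uterus alone reached into the ovarian range. Without OT1 the difference was -0.53 (adjusted p = 8.836e-06). Bcl2a1b was lower in the uterus by 1.12 (SE 0.36, adjusted p = 0.0184), with the OT1 and OT2 uteruses inside or above the ovarian range. Its call was lost without OC2 (-1.01, adjusted p = 0.0794), without OC3 (-1.04, adjusted p = 0.0781) or without OT3 (-0.94, adjusted p = 0.056). The summed Bcl2a1 genes were lower by 1.02 (SE 0.35, adjusted p = 0.0258), a call lost without OC2 (adjusted p = 0.083), OC3 (adjusted p = 0.12), OT3 (adjusted p = 0.0535) or OT4 (adjusted p = 0.0718).

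The other 5 genes did not pass. Bcl2l11 had a log2 difference of 0.44 (SE 0.23, adjusted p = 0.129), which became 0.67 and passed without OT1 (adjusted p = 9.695e-05). Bak1 (0.07, SE 0.09), Bbc3 (0.01, SE 0.19), Bcl2a1a (-0.51, SE 0.60) and Bcl2a1d (-0.31, SE 0.69) had adjusted p from 0.497 to 0.969. With Bcl2 higher and Bax lower in the uterus, the ratio of Bax to Bcl2 was 2.95 to 4.06 in the ovaries and 1.16 to 1.498 in 6 of the uteruses, and 2.86 in the OT1 uterus. The markers of all leukocytes differed between tissues in the other direction from the summed Bcl2a1 genes, as Ptprc, Cd53 and Laptm5 summed to 32.3 to 59.2 FPKM in the ovaries and 70.1 to 138 FPKM in the uteruses.

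**Figure D3:**
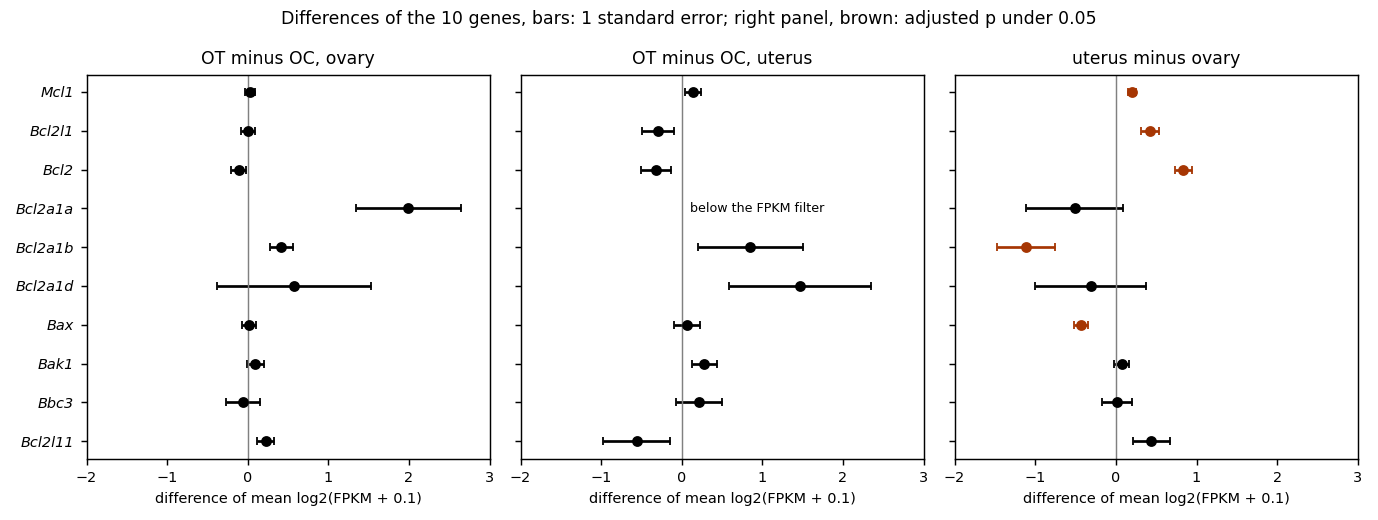
Differences of mean log2(FPKM + 0.1) (x axis) of the 10 genes (y axis) between OT and OC in the ovary, between OT and OC in the uterus, and between uterus and ovary, with bars of 1 standard error. In the right panel the genes in brown, Bcl2, Bcl2l1 and Mcl1 above 0 and Bax and Bcl2a1b below 0, had an adjusted p under 0.05, and Bcl2a1a is not fitted in the middle panel.

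The effect of AMSC-CM in the uterus was asked by comparing OT with OC. A gene was called at a fold change of 2 or more and an unadjusted p of at most 0.05, the cutoffs of the study, in limma over the 14151 genes whose uterine mean reached 0.5 FPKM. Bcl2a1a, with a mean under that level, was not tested. None of the other 9 genes was called, against 2.90% of all genes tested. By limma, 0 genes of the whole table (0.00%) passed an adjusted p of 0.05, and 1160 had an unadjusted p under 0.05. The median log2 difference of the 9 was 0.14, against 0.01 for all genes. In 1 of the 9, Mcl1, the groups did not overlap, against 11.9% of all genes.

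Mcl1 was 0.14 higher in OT uteruses on the log2 scale (SE 0.10, limma adjusted p = 0.667). Its sign turned with quantile normalization (-0.01). Bcl2 was at -0.32 (SE 0.19, limma adjusted p = 0.625) and Bcl2l1 at -0.30 (SE 0.20, limma adjusted p = 0.631). Leaving out the OT1 uterus brought these to -0.18 and -0.15. Neither difference exceeded the spread between mice by this test.

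Bcl2l11 stood at -0.56 (SE 0.42, limma adjusted p = 0.665) and at -0.15 without OT1. Bax stood at 0.06 (SE 0.16, limma adjusted p = 0.902) and at -0.07 without OT1. Bak1 was at 0.28 (SE 0.16, limma adjusted p = 0.625, and 0.16 without OC3) and Bbc3 at 0.21 (SE 0.29, limma adjusted p = 0.793). The standard errors are large beside these values, and a p above the threshold does not show that the groups were alike.

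Among the Bcl2a1 genes in the uterus, Bcl2a1b was at 0.85 (SE 0.66, limma adjusted p = 0.671) and Bcl2a1d at 1.47 (SE 0.88, limma adjusted p = 0.626). Bcl2a1d passed the level filter through the OT group. Bcl2a1b was at 0.52 without OT1 and 0.45 without OT2, and Bcl2a1d at 0.71 without OC3 and below the filter without OT1. The summed Bcl2a1 genes were at 1.04 (SE 0.64, limma adjusted p = 0.627), and at 0.71 without OT1 or 0.66 without OT2, the 2 libraries that carried the high values.

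In the ovary the same comparison is a description only, since the genes were proposed with its result for Bcl2a1a known. On the log2 scale, OT minus OC was 1.99 for Bcl2a1a (SE 0.65), 0.57 for Bcl2a1d (SE 0.96), 0.42 for Bcl2a1b (SE 0.14) and 0.67 for the summed Bcl2a1 genes (SE 0.13). The added 0.1 FPKM understates or sets the fold of a gene this low: for Bcl2a1a the difference was 0.70 with 1 FPKM added and 3.21 with 0.01 FPKM added. Bcl2a1a passed the level filter through the OT group, and without OT4 it no longer passed. The Bcl2a1d difference rested on single libraries: it was 1.52 without OT3, where it is listed at 0, 0.94 without OC3, and between 0.20 and 0.26 without OC2, OT1, OT2 or OT4, and it was 0.00383 with 0.01 FPKM added.

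Each of the other 7 genes stayed within 0.22 of 0 in the ovary. Bcl2l11 was at 0.22 (SE 0.10), Bak1 at 0.09 (SE 0.11), Mcl1 at 0.03 (SE 0.06), Bax at 0.02 (SE 0.09), Bcl2l1 at 0.01 (SE 0.09), Bbc3 at -0.06 (SE 0.21) and Bcl2 at -0.12 (SE 0.10). In all, 1 of the 10 genes met the study's cutoffs, against 0.451% of all genes, and 2 had groups that did not overlap, against 5.91%. By limma, 0 of all ovary genes (0.00%) passed an adjusted p of 0.05, and 650 had an unadjusted p under 0.05. Nothing is read from these shares, as the comparison had a part in the choice of the genes. The 10 genes had a median of 0.06 and all genes -0.01.

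The difference between the uterine and ovarian OT minus OC values ran from -1.01 for Bcl2a1a (SE 1.21) to 0.90 for Bcl2a1d (SE 1.38), and was -0.78 for Bcl2l11 (SE 0.47) and 0.37 for the summed Bcl2a1 genes (SE 0.70). These rested on single libraries: Bcl2l11 was at -0.31 without OT1, Bcl2a1d at -0.23 without OC3, and the summed Bcl2a1 genes at 0.00385 without OT2, 0.04 without OC3 and 0.07 without OT1. In limma 0 of 14557 genes differed between tissues in this way after adjustment at 0.05, and 746 had an unadjusted p under 0.05.

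Monocyte and macrophage markers moved with the summed Bcl2a1 genes, and were not the only blood cell list higher in OT ovaries. In the ovary, 5 of 6 monocyte and macrophage markers had a higher mean in the OT group and 3 of these did not overlap between groups (5.91% of all ovary genes). Their sum was 147 to 224 FPKM in OC ovaries and 223 to 332 FPKM in OT ovaries, with Lyz2, a macrophage lysozyme, at 104 to 166 FPKM and 166 to 245 FPKM. Neutrophil markers summed to 2.57 to 4.77 FPKM in OC ovaries and 4.37 to 5.85 FPKM in OT ovaries. Of the 6, 5 had a higher mean and 2 did not overlap. All 3 B cell markers had a higher mean in OT ovaries and 1 did not overlap. They summed to 0.652 to 0.956 FPKM in OC ovaries and 0.727 to 11.6 FPKM in OT ovaries. The 3 markers of all leukocytes had higher means in OT ovaries, with sums of 32.3 to 46.5 FPKM and 37.2 to 59.2 FPKM. Mast cell markers (14.8 to 27.9 FPKM in OC and 15.9 to 19.1 FPKM in OT ovaries) and T cell markers (0.705 to 2.59 FPKM and 0.347 to 1.88 FPKM) did not stand higher in the OT group. Adipocyte markers also moved with the summed genes in the ovary, with 5 of 5 higher in mean and sums of 87.7 to 148 FPKM in the OC group and 799, 528, 117 and 258 FPKM in the OT group.

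In the uterus the monocyte and macrophage markers summed to 210 to 259 FPKM in the OC group and to 384, 845, 288 and 269 FPKM in OT1, OT2, OT3 and OT4. The 2 highest, OT1 and OT2, were also the 2 uteruses with the highest summed Bcl2a1 genes. Most of these 2 sums was 1 gene, Lyz2, at 270 FPKM in OT1 and 652 FPKM in OT2. Not every marker followed: Cd14 was lowest in the OT1 uterus (15.7 FPKM). Adgre1 and Itgam were higher in OT4 (28.1 and 13.45 FPKM) than in OT1 (23.6 and 11.5 FPKM). Neutrophil markers did not follow that order: they summed to 5.70 to 9.497 FPKM in the OC group and to 42.6, 10.2, 21.5 and 9.08 FPKM in the OT group. Most of the 2 highest sums was 1 gene, Retnlg, at 39.9 FPKM in OT1 and 17.3 FPKM in OT3. B cell markers summed to 11.6 FPKM in the ovary and 14.1 FPKM in the uterus of OT2, and to at most 1.62 FPKM in every other library. T cell markers stayed between 0.339 and 2.59 FPKM in all libraries. Mast cell markers summed to 94.0 and 88.2 FPKM in the OT1 and OT2 uteruses, against 43.3 to 67.1 FPKM in the other uteruses. The part of blood cells and of adipocytes in the Bcl2a1 values was not tested.

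**Figure D4:**
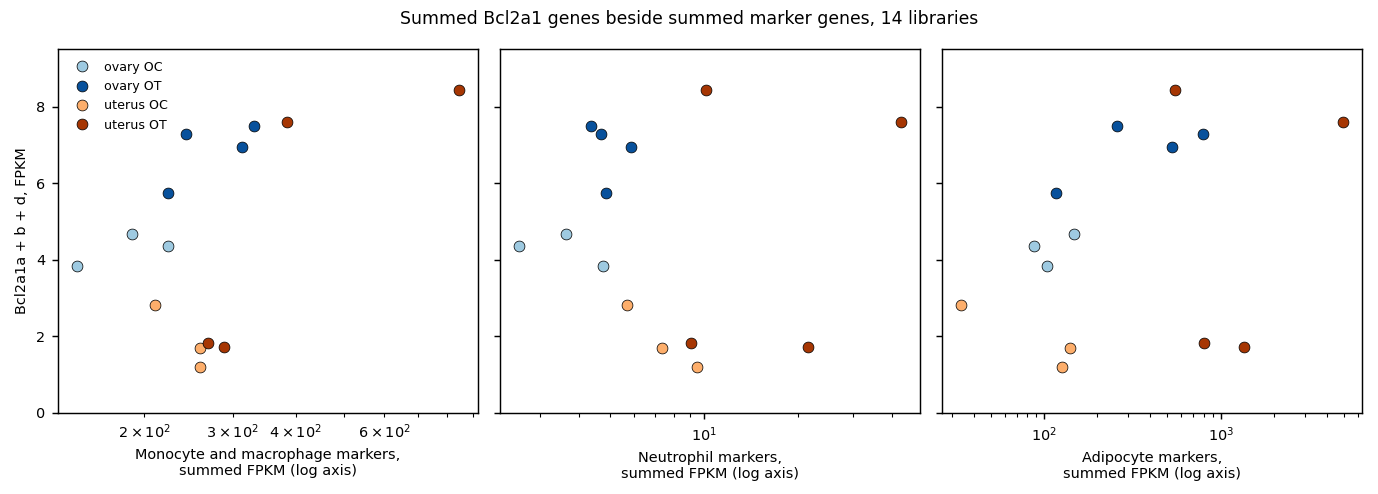
Summed Bcl2a1 FPKM (y axis, linear) against summed FPKM of monocyte and macrophage, neutrophil and adipocyte markers (x axes, log scale). Each point is 1 of 14 libraries, and the OT1 and OT2 uteruses hold both the highest summed Bcl2a1 genes (7.61 and 8.43 FPKM) and the highest summed monocyte and macrophage markers (384 and 845 FPKM).

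The genes whose pattern was most like that of the summed Bcl2a1 genes were sought among 13653 genes, by Pearson's r of log2(FPKM + 0.1) centred on each tissue's mean over the 14 libraries. They were Apoe (r = 0.937), C1qb (0.934), C1qc (0.926), Cd300lb (0.923) and Ms4a6d (0.921). C1qb and C1qc encode complement chains made by macrophages, and Apoe a lipid carrier that macrophages also make. For the single copies, the closest genes were Cd300lb (0.935) for Bcl2a1b and Cd209g (0.914) for Bcl2a1d.

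For the other 7 genes the closest were 9430015G10Rik for Bcl2 (r = 0.953), Ddx19b for Bcl2l1 (0.949), St6galnac4 for Mcl1 (0.866), Isca1 for Bax (0.932), Sdsl for Bak1 (0.887), Dnajb12 for Bbc3 (0.801) and Acvr2b for Bcl2l11 (0.973). The libraries share their composition and some lie far from the rest, such as the OT1 uterus, so these coefficients only describe the 14 libraries.

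The remaining genes of the pathway were followed in 3 lists. Counts between tissues stand beside 26.1% higher and 26.8% lower in the uterus over all genes. Among 14 other family members, Bcl2l10 was 3.95 lower in the uterus on the log2 scale (SE 0.33, adjusted p = 4.646e-07). Bcl2l10, a survival gene typical of oocytes, measured 4.58 to 7.43 FPKM in the ovaries and 0 to 0.799 FPKM in the uteruses. It passed the level filter through the ovaries. Bcl2l2, the gene of BCL-W, was lower by 0.64 in the uterus (35.1 to 43.7 FPKM in ovaries and 17.7 to 31.5 FPKM in uteruses), so that in the ovary it exceeded Bcl2l1 in every library. With Bcl2l13, 3 of the 13 tested were lower in the uterus.

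Another 4 were higher there. They included 3 BH3-only genes, Hrk by 2.76 (SE 0.68, adjusted p = 0.00415), Pmaip1, the gene of NOXA, by 1.55 (SE 0.22, adjusted p = 5.237e-05) and Bik by 1.12 (SE 0.24, adjusted p = 0.00178). Bcl2l14 was higher by 1.20. The levels of Pmaip1 were 0.674 to 1.58 FPKM in the ovaries and 1.56 to 3.74 FPKM in the uteruses. In neither tissue was any other family member called between OT and OC, with log2 differences from -0.77 (Bcl2l15) to 0.43 (Pmaip1) in the ovary and from -1.42 (Hrk) to 0.34 (Bok) in the uterus. Without OT1 Hrk was at -0.42.

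Downstream of the mitochondria, 20 genes of the apoptosome, the caspases and their inhibitors were tested. In the uterus 2 were higher than in the ovary, among them Xiap, a caspase inhibitor, by 0.34. Lower in the uterus were 6, led by Aifm1 (-0.89, SE 0.14, adjusted p = 0.000118), Casp6 (-0.87, SE 0.11, adjusted p = 2.659e-05) and Diablo (-0.63), an antagonist of XIAP released with cytochrome c. None of the 20 was called between OT and OC in either tissue. Their log2 differences ran from -0.30 (Endog) to 0.15 (Diablo) in the ovary and from -0.39 (Birc2) to 0.69 (Cycs) in the uterus. Without OT1 Cycs was at 0.30.

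Upstream of the family, 14 regulators and death receptor genes were tested between tissues, of which 5 were higher in the uterus and 3 lower, 1 of these being Ddit3, a symbol that more than 1 identifier carries. Fasl was higher by 1.23, Cdkn1a, a p53 target, by 0.87, Fas by 0.67, Tnfrsf10b by 0.62 and Nfkb1 by 0.17 (adjusted p = 0.04996, and 0.167 with the mouse name as a block), whereas Trp73, a relative of p53, was lower by 3.27 (SE 0.35, adjusted p = 4.966e-06). Fasl passed the level filter through the uteruses (mean 0.778 FPKM, against 0.275 FPKM in the ovaries). Trp73 passed it through the ovaries (mean 1.23 FPKM, against 0.051 FPKM in the uteruses). Between OT and OC 1 of 13 tested was called in each tissue, where the shares over all genes were 0.451% for ovaries and 2.90% for uteruses. In the ovary Tnf, an inducer of NF-kB, was higher by 1.42 (SE 0.49, limma adjusted p = 0.997), with 0.0932, 0.566 and 0.178 FPKM in the OC group and 0.983, 0.872, 0.753 and 0.575 FPKM in the OT group. Tnf passed the level filter through the OT group. The groups did not overlap, and the call was lost without OC1 (1.04) or OC3 (1.30).

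In the uterus Trp63, the p53 relative that guards oocytes and marks basal epithelium, was higher by 2.87 (SE 0.78, limma adjusted p = 0.485). Trp63 passed the level filter through the OT group. It measured 0.331, 0.774 and 0.263 FPKM in the OC group and 4.40, 0.776, 10.1 and 4.90 FPKM in the OT group. Markers of stratified epithelium, of which Trp63 is one, moved with it, at 1.30 to 9.41 FPKM in OC uteruses and 34.7 to 657 FPKM in OT uteruses, all 4 of 4 without overlap (11.9% of all uterus genes). Trp53 itself lay between 22.1 and 27.8 FPKM in all 14 libraries.

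**Figure D5:**
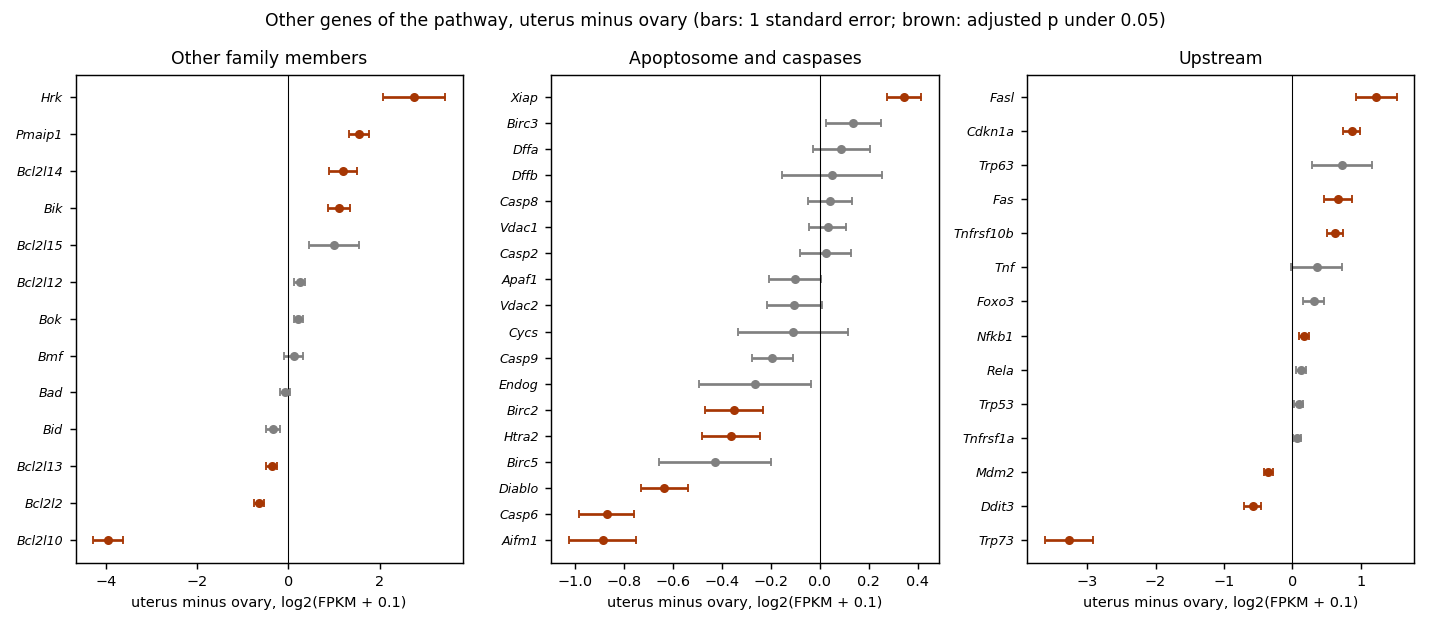
Differences of mean log2(FPKM + 0.1) between uterus and ovary (x axis) for the tested genes of the 3 lists that are reported here (y axis), with bars of 1 standard error and adjusted p under 0.05 in brown. Bcl2l10 (-3.95) and Trp73 (-3.27) lie farthest below 0 and Hrk (2.76) farthest above it.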

How the data were processed

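RNA-seq libraries of the ovary and uterus of 3 OC and 4 OT mice were grouped by their labels. Stranded, rRNA-depleted total RNA was sequenced. The authors trimmed reads with Skewer 0.2.2, mapped them to mm10 with STAR 2.5 and estimated FPKM per gene with Cufflinks 2.2.1. These deposited FPKM were used as given. They are scaled to mapped fragments, so depth and counting precision are unknown, and Cuffdiff, which needs reads, was not run. Multi-copy genes such as Bcl2a1a, Bcl2a1b and Bcl2a1d share reads that Cufflinks divides by estimate. Symbols and positions came from GENCODE mouse M21, which matched all 21853 identifiers. Promoter windows came from RefSeq.

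Genes whose mean reached 0.5 FPKM were fitted on log2(FPKM + 0.1) with limma 3.58.1 in R 4.3.3 (lmFit, eBayes with trend), within each tissue for OT against OC and over 14 libraries between tissues. P-values were adjusted by Benjamini-Hochberg over all genes fitted. The log2 difference understates the change of genes near 0.1 FPKM. The limma step was tested on simulated data. Python 3.11.15, numpy 2.4.6, pandas 2.3.3, Biopython 1.88 and matplotlib 3.10.9 were used for the rest.

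The 10 genes, the pathway and marker lists were chosen with earlier results of these data known. All 10 genes were named in each comparison. Of the 3 pathway lists, called genes (up to 5, largest difference first) or the extremes were named, with further genes (Bcl2l2, Bcl2l13, Xiap, Nfkb1, Trp53) chosen after their values were seen. A few genes that this rule names are not reported here. The PU box was chosen likewise. Alternatives were other pseudocounts, filters, scalings, robust eBayes, 1 fit of all libraries, blocks by replicate or mouse name, and leaving out each replicate. Summing the Bcl2a1 genes was added after seeing the data.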

Additional observations from a re-analysis of the deposited data

Results flagged for a closer look

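In the 22 OT groups of 4 libraries that could be examined, 10 genes and the summed Bcl2a1 genes in 2 tissues, a library far from the other 3 was found in 2, and chance gives about 1 in 20. The Bax value of the OT1 uterus, 40.4 FPKM, was separated from the next OT uterus by a gap of 0.896 of the group's range, past the 95% critical value of Dixon's test. The same library held 4945 FPKM of adipocyte markers and the lowest uterine Bcl2l11, Bcl2l1 and Bcl2. It also had the highest FPKM summed over all genes (577494). Divided by that sum, its Bax was no longer far from the other OT uteruses, so the flag holds for unscaled FPKM only. The Bcl2a1d value of the OT3 ovary, listed at 0 FPKM, was separated from the other 3 by 0.964 of the range, while Bcl2a1b in that library was 5.27 FPKM and the summed Bcl2a1 genes 5.74 FPKM, the lowest of the OT ovaries.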

How the results depend on the processing

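Between OT and OC in the uterus, 0 of the genes were called under every alternative but the replicate block, under which 1 was (Bcl2a1d, 1.96, limma adjusted p = 0.29). The block also moved the pathway genes called from 1 to 2 in the uterus and from 1 to 2 in the ovary. Replicate numbers name different mice and the deviations of same-numbered libraries did not all correlate above 0.1, so the numbers were not taken as pairs. Within a group, 6 of 7 uteruses correlated best with the ovary of the same name, and the block by mouse name changed no call of the 10 genes between tissues. Among the pathway genes it ended the call of Nfkb1 (adjusted p = 0.167), for 22 called in place of 23. In the ovary the 1 gene called, Bcl2a1a, became 0 with a pseudocount of 1 or a filter of 2 FPKM, and 0 to 2 with 1 replicate left out, 0 without OC3 or OT4 and 2 without OT3. Pathway genes called in the ovary, 1, became 0 with the pseudocount of 1 or the filter of 2 FPKM, 2 with no filter, and 0 to 2 with 1 replicate left out (0 without OC1, 2 without OT4).

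Between tissues 5 genes were called, and 2 in OT libraries alone, where Bcl2l1 (0.27, adjusted p = 0.247), Bcl2a1b (-0.90, adjusted p = 0.232) and Bax (-0.41, adjusted p = 0.0547) lost their calls. In OC libraries alone Mcl1 lost its call (0.14, adjusted p = 0.125) and Bcl2l11 gained one (0.83, adjusted p = 0.00246). Signs turned only for differences that were not called. In the uterus, OT against OC, these were Mcl1 (-0.0115) and Bax (-0.00856) with quantile normalization, Bax without OT1 (-0.0723) and Bbc3 without OC1 (-0.0556). With 1 replicate left out Bax ranged from -0.0723 to 0.118 and Bbc3 from -0.0556 to 0.445. Between tissues, quantile normalization turned Bcl2a1a (0.307) and Bcl2a1d (0.325). Bcl2a1d also turned in OT libraries alone (0.134), without OC3 (0.251) and without OT4 (0.0943). Bak1 turned in OC libraries alone (-0.0235) and without OC2 (-0.00135). Bbc3 turned in OC libraries alone (-0.126), without OC2 (-0.0165), OC3 (-0.146), OT2 (-0.112) or OT4 (-0.0387). With 1 replicate left out, Bcl2a1d ranged from -0.721 to 0.251, Bak1 from -0.00135 to 0.131 and Bbc3 from -0.146 to 0.192. The causes were not tested.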
